A study of Mus musculus with 2 samples.

Results

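The TGF-beta and BMP pathway genes described here are 54 mouse genes that encode the ligands, receptors, antagonists, SMAD proteins, ID proteins and latency proteins of this signalling system. They were taken by symbol from a table of 55487 Ensembl genes, and each symbol matched 1 gene in the GENCODE M21 annotation. The samples were osteoblasts, the cells that lay down bone, made apoptotic with ultraviolet light. There was 1 RNA-seq library from young mice and 1 from old mice. By the growth protocol, cells that grew out of bone pieces were passaged 3 times, kept in osteogenic medium for 3 days and exposed to ultraviolet light for 0.5 h, and over 90% of them then stained with Trypan Blue, which marks cells with leaky membranes. Both groups were treated in this way. The young sample carries the treatment label day 0 and the old one day 5, although the protocol field states no treatment. Whatever the day stands for, it cannot be told apart from age. The labels used here give no strain, sex or exact age and no number of animals or cultures behind a library. With 1 library a group no difference has a replicate check, no test was run, and every comparison below is between these libraries and not between the ages.

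Gene-assigned reads numbered 16333396 (young) and 18114336 (old). FPKM is a number of reads per kilobase of transcript, scaled to the depth of the library. The length used was the mean over a gene's annotated transcripts, so comparisons of level between genes depend on that length. Differences are given as the ratio of FPKM, old over young, with a 95% interval in brackets that covers counting error only, or as the log2 ratio of FPKM + 1, which understates the differences of low genes. The filter kept genes whose 2 values averaged 1 FPKM or more, which left 12561. A 2-fold difference means a log2 ratio of FPKM + 1 of 1 or more in size, and counts at 1.5-fold use the same scale. In bulk RNA, fewer cells of a type and less RNA per cell cannot be told apart. Of 12 osteoblast and stromal markers 11 passed, with summed levels of 21882 FPKM (young) and 18851 FPKM (old), most of it from Col1a1, Col1a2 and Sparc. Within that list Spp1, the bone matrix protein osteopontin, was higher among old cells, at 224 and 1732 FPKM, and Sp7 lower, at 55.5 and 28.9 FPKM. Alpl (2.78 and 3.28 FPKM) and Bglap (3 and 6 reads), genes of mineralising osteoblasts, were the lowest of the 12. Of the defining markers of other cells, Ptprc of leukocytes had 1 and 0 reads, Cdh5 of endothelium 0 and 2, Adipoq of adipocytes 0 and 1, and Acan of cartilage 0 in both. The cartilage genes Col2a1 (53.3 and 46.8 FPKM) and Sox9 (44.9 and 51.0 FPKM) were however present. Of 12 macrophage markers 4 passed (summed 39.0 FPKM young, 40.1 old), of 8 cartilage markers 3 (101 and 99.5), and of 8 osteoclast markers 2 (68.5 and 77.7). Within these sums single markers differed. The ratio was 2.04 [1.59 to 2.63] for Cd14, and 0.862, 0.920 and 0.966 for Lyz2, Cd74 and Cd68. For the osteoclast markers it was 1.79 for Mmp9 and 0.927 for Ctsk. The other 8 macrophage and 6 osteoclast markers had fewer than 12 reads in each library. Among them Adgre1, Itgam and Calcr had 0 in both, and Acp5 had 1 and 0. Of 8 smooth muscle markers 5 passed (1563 and 1350.0), of which Acta2 was lower (1404 and 1171 FPKM) and the other 4 higher among old cells, with a median log2 ratio of 0.29. Under the filter were Myh11 (0 and 2 reads), Rgs5 (2 and 2) and Cnn1 (11 and 17). No neutrophil, lymphocyte, erythroid or endothelial marker passed, and 1 adipocyte marker did. Endothelial Vwf had 17 reads in each library and Pecam1 13 and 6. The part of such cells in the differences was not tested.

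TGF-beta is secreted in a latent complex with its own propeptide and a latent TGF-beta binding protein, which ties it to the matrix until it is released. BMPs, growth and differentiation factors and activins belong to the same family. All bind pairs of type I and type II receptor kinases, which phosphorylate SMAD2 and SMAD3 for TGF-beta and activin, and SMAD1, SMAD5 and SMAD9 for BMP, and these enter the nucleus with SMAD4. In bone, BMPs drive stromal cells towards osteoblasts, TGF-beta stored in the matrix recruits and restrains them, and the ID genes are classical direct targets of BMP signalling.

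In the old library the BMP antagonist Grem1 was higher, and the ID genes Id1, Id2 and Id3 and the ligand Bmp4 were lower, while the fourth family member Id4 was higher. Grem1 was at 1.67 FPKM (young) and 11.7 FPKM (old). Id3, the most abundant ID gene by FPKM, was at 376 FPKM (young) and 176 FPKM (old). The TGF-beta ligands and the receptors Tgfbr2 and Tgfbr3 were higher in the old library by less than 2-fold. Most of the receptor kinases, SMADs and co-repressors past the filter differed by less than 1.5-fold. Among them the SMADs of the BMP branch were lower and those of the TGF-beta branch higher in the old library.

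**Figure D1:**
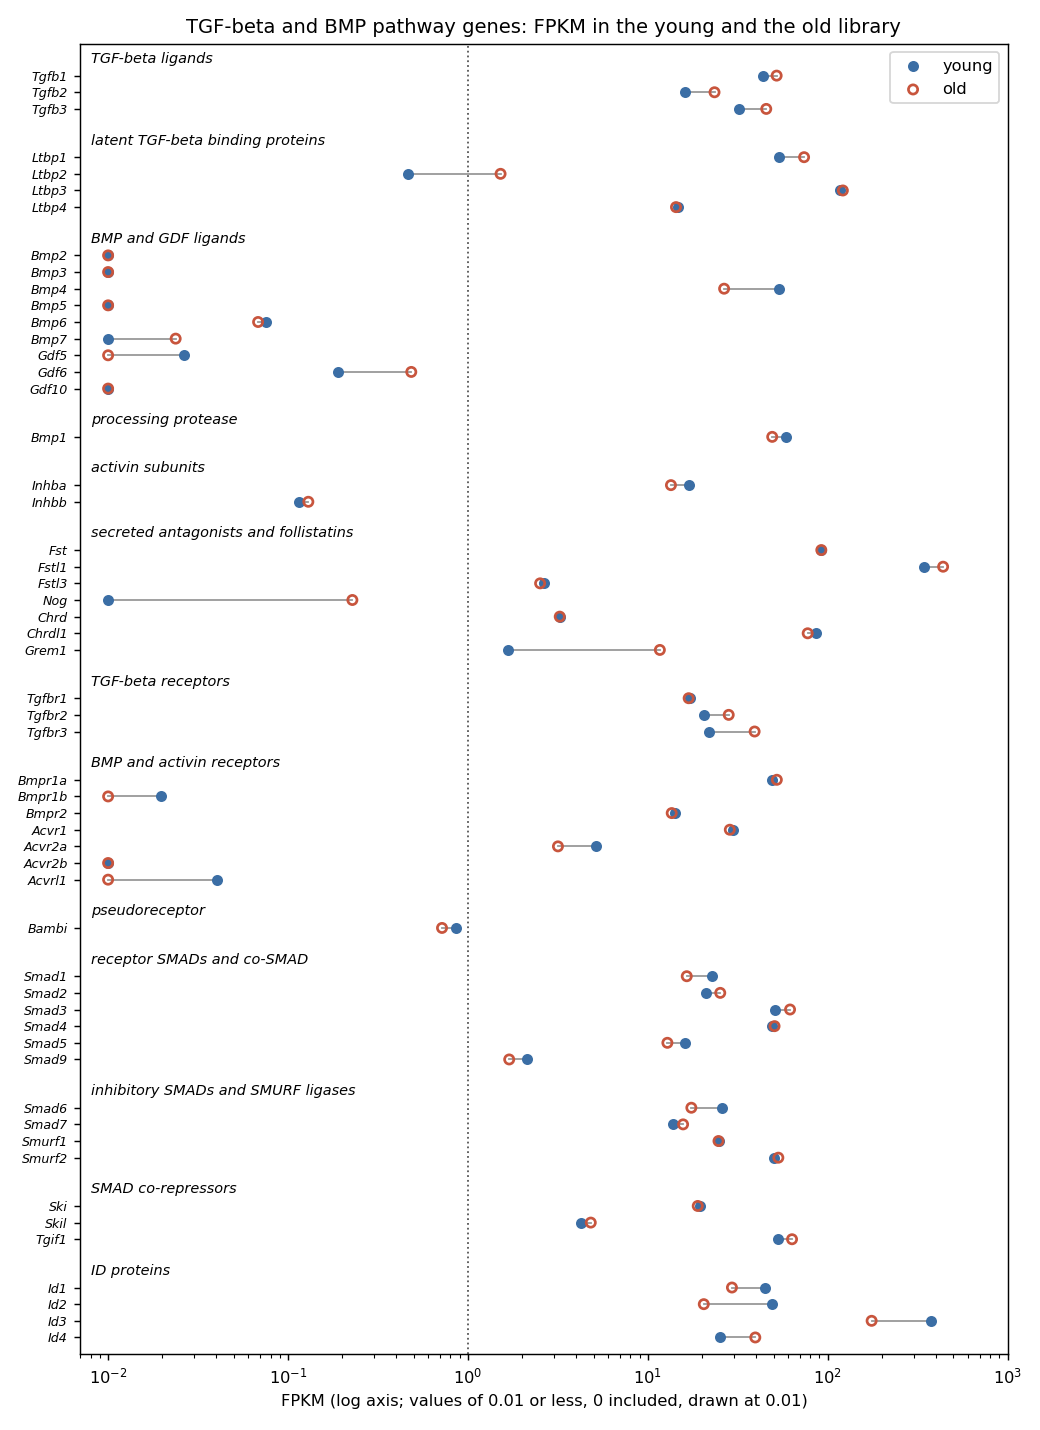
FPKM of all 54 genes on a log axis, grouped by role, filled blue for young and open red for old, with values of 0 drawn at the left edge, and a dotted line at 1 FPKM. The widest gap among genes above the line in both libraries is that of Grem1 (1.67 and 11.7 FPKM), and Id2 and Id3 lie lower in the old library.

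Of the 54 genes, 39 passed the filter, and each of the 39 was at or above 1 FPKM in both libraries. At 2-fold, 1 of 39 (2.56%) was higher, against 1.97% of all 12561 genes, and 2 of 39 (5.13%) were lower, against 0.868% of all genes. At 1.5-fold, 3 were higher (7.69%, against 5.52% of all genes) and 4 lower (10.3%, against 4.47%). The remaining 32 (82.1%) lay within 1.5-fold on the log2 scale of FPKM + 1, as did 90.0% of all genes. They include Acvr2a, whose plain FPKM ratio was 0.615. The share of members at 2-fold higher was near that of all genes, and that of lower members rests on 2 genes. The median log2 ratio of the 39 was 0.00, and that of all genes −0.07. The log2 ratio of 27 members was above the median of all genes and that of 12 below it.

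**Figure D2:**
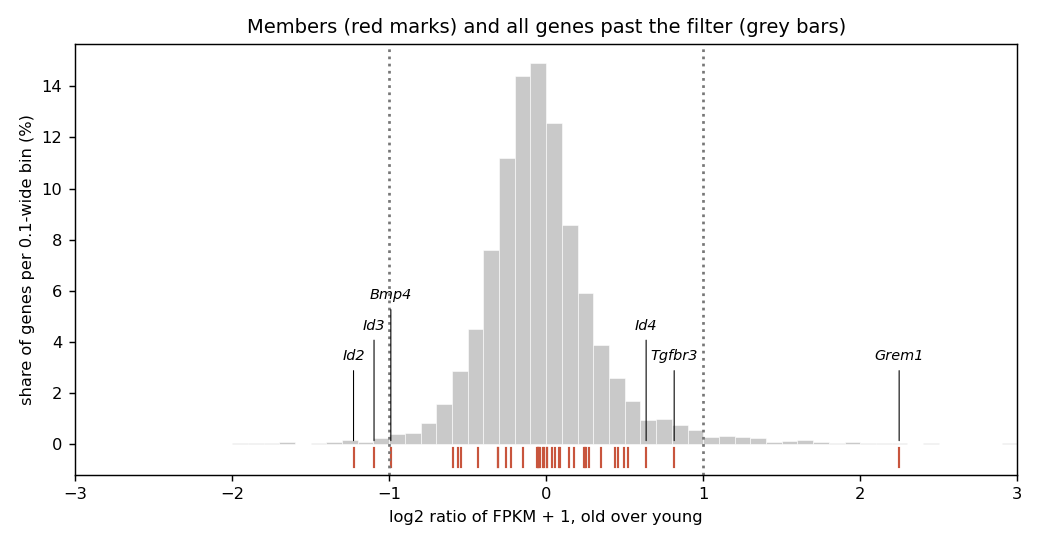
Log2 ratios of FPKM + 1, old over young, of the 39 members past the filter (red marks) and of all 12561 genes past it (grey bars, share per bin, with genes beyond the axis in the end bins), with dotted lines at 2-fold. Grem1 stands at 2.25 on the right, Id2, Id3 and Bmp4 stand at −1.23, −1.10 and −0.99 on the left, and most members lie among the bulk of genes.

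Promoter sequences are shown for 4 genes: the BMP ligand Bmp4 and the inhibitory Smad6, which were lower in the old library, and Grem1 and Id4, which were higher. Each is the stretch of 250 bases before the RefSeq start on build GRCm38.p6, printed 5′ to 3′ on the gene's own strand. No stretch of 30 bases in it, read in that direction, was found in an annotated transcript. Transcripts of the opposite strand were not searched. Capitals mark matches to short motifs that SMAD proteins are known to bind, searched on both strands. One was CAGAC, which is GTCTG when read on the other strand. Another was GGCGCC, which reads alike on both. The last was GGAGCC and on the other strand becomes GGCTCC. Matches in these 4 sequences did not overlap.
Grem1, chr2:113758649-113758898, minus strand: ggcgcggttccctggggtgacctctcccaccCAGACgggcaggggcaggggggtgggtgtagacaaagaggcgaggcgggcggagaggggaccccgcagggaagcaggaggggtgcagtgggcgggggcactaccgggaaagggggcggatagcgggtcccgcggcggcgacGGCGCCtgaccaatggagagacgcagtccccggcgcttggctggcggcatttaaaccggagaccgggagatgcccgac
Bmp4, chr14:46390670-46390919, minus strand: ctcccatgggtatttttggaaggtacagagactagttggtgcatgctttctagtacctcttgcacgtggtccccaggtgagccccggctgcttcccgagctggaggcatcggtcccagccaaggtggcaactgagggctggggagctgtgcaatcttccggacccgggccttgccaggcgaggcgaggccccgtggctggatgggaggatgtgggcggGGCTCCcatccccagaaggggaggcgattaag
Smad6, chr9:64022060-64022309, minus strand: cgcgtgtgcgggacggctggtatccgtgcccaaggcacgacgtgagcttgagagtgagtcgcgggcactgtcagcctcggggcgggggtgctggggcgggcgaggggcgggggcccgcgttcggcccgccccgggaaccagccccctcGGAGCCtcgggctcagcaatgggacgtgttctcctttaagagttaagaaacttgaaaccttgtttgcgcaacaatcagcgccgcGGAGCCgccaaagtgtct
Id4, chr13:48260866-48261115, plus strand: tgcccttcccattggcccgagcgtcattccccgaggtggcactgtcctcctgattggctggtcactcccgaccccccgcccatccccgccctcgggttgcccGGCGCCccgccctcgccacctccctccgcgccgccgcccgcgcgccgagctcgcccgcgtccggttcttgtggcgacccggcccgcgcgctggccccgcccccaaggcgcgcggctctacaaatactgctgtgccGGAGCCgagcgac

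In these 4 sequences GGCGCC stood before Grem1 and Id4, and not before Bmp4 or Smad6. GGAGCC stood before Bmp4, Smad6 and Id4, and CAGAC before Grem1. The 4 sequences were picked by the direction of their genes and are too few to relate a motif to a direction. RefSeq windows were matched for 36 of the 54 genes, 48 windows in all. GGCGCC was in 13 of the 48 member windows (27.1%) and in 9.59% of the 32851 windows of all genes. GGAGCC was in 47.9% of member windows and 26% of all windows, and CAGAC in 47.9% and 42.2%. Some genes have several windows, and windows of 1 gene can overlap and hold the same match. Counted by gene, GGCGCC was before 12 of the 36 genes, GGAGCC before 22 and CAGAC before 19. Shares by gene were not worked out for all genes. The median GC content was 66.6% over the member windows and 52.4% over all windows, and its part in the shares of the GC-rich motifs was not tested. Of the 48 member windows, 28 shared no stretch of 30 bases with an annotated transcript read in the same direction. Those of Id2 and Id3 lie within the annotated gene and are not printed. The Id2 window held 1 match each to GGCGCC and GGAGCC, and the Id3 window 2 matches to CAGAC and 1 to GGAGCC. A match is a string of letters and does not show that a SMAD protein binds there.

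Among the ligands, the 3 TGF-beta genes were all higher in the old library, under each scaling tried, and none passed 1.5-fold except Tgfb2 at a log2 ratio of 0.59 with the median of all genes set to 0. Tgfb1, the main form in bone matrix, was at 43.9 FPKM (young) and 52.0 FPKM (old), a ratio of 1.19 [1.09 to 1.30]. Tgfb2 was at 16.1 and 23.5 FPKM, ratio 1.46 [1.30 to 1.64]. Tgfb3 was at 32.0 and 45.6 FPKM, ratio 1.42 [1.34 to 1.51], and other annotated genes overlap 12.4% of its exon bases. Summed, the 3 ligands were at 91.9 FPKM (young) and 121 FPKM (old). Tgfb1 made up 47.7% of that sum (young) and 43.0% (old). In both libraries the order of the levels was Tgfb1, Tgfb3, Tgfb2.

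The latent TGF-beta binding proteins hold the latent ligand in the matrix, and Ltbp3 was the most abundant of them by FPKM, at 117 and 121. Ltbp1 was higher in the old library, at 53.5 and 73.9 FPKM and a ratio of 1.38 [1.32 to 1.45]. Ltbp4 was close to even at 14.8 and 14.4 FPKM. Its values did not come out as whole reads, so it has no interval. Ltbp2 lay just under the filter with a mean of 0.99 FPKM. Its 28 reads (young) and 102 reads (old) correspond to 0.46 and 1.52 FPKM, ratio 3.28 [2.14 to 5.18].

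Bmp4, a BMP that promotes bone formation, was the only one of 9 listed BMP and GDF ligands to pass the filter. It was at 53.7 FPKM in the young library on 981 reads and at 26.6 FPKM in the old on 538 reads. The ratio was 0.495 [0.444 to 0.550], and the log2 ratio of −0.99 lay just short of 2-fold, or past it at −1.01 with a pseudocount of 0.1. A log2 ratio this low or lower was found for 115 of 12561 genes (0.916%), and for 30 of the 8264 genes averaging 10 FPKM or more. Bmp4 (ENSMUSG00000021835) lies on chromosome 14, from 46383520 to 46390669 in GRCm38.

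The other BMP and GDF ligands were under the filter, and all but Gdf6 had 2 reads or fewer in each library. Bmp2, Bmp3, Bmp5 and Gdf10 had no reads in either library. For Bmp2, an inducer of osteoblasts, 0 reads allow up to 0.0517 FPKM (young) and 0.0466 FPKM (old), counting 3 reads as the limit. Bmp6 had 2 reads in each library, and Bmp7 and Gdf5 had 1 read in 1 library only. Gdf6 reached 11 reads (young) and 31 reads (old), or 0.19 and 0.48 FPKM.

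Bmp1 is not a ligand of the family but the protease that trims procollagen and the antagonist chordin. It was at 59.0 FPKM (young) and 49.2 FPKM (old), a ratio of 0.834 [0.790 to 0.880]. Inhba, whose product pairs to form activin A, was at 16.9 and 13.5 FPKM, ratio 0.798 [0.731 to 0.871]. The other activin subunit gene, Inhbb, had 8 and 10 reads. Both Bmp1 and Inhba were thus lower in the old library by less than 1.5-fold.

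The secreted antagonists differed in direction, and Grem1 stood apart from the rest. Grem1 encodes gremlin 1, which binds BMP2, BMP4 and BMP7 and keeps them from their receptors. It was counted with 113 reads (young) and 877 reads (old), which give the 1.67 and 11.7 FPKM given above and a ratio of 7.0 [5.75 to 8.59]. The log2 ratio was 2.25, a value reached or passed by 21 of 12561 genes (0.167%). It was 1.32 with a pseudocount of 5 and 2.74 with a pseudocount of 0.1, at 2-fold or more in each. Grem1 (ENSMUSG00000074934) lies on chromosome 2, from 113746164 to 113758646 in GRCm38, none of its exon bases are overlapped by another gene, and 3.05% of its words of 50 bases also occur in other genes.

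The remaining antagonists and follistatins that passed the filter differed by less than 1.5-fold. Chrdl1, a chordin-like BMP antagonist, was at 85.9 FPKM (young) and 77.4 FPKM (old), on 4191 reads in each. Chrd, chordin itself, was at 3.23 and 3.24 FPKM. Nog, the antagonist noggin, had 0 reads in the young library, which allows up to 0.108 FPKM, and 7 in the old, which is 0.23 FPKM. Summed over Nog, Chrd, Chrdl1 and Grem1, the level was 90.8 FPKM (young) and 92.6 FPKM (old). Grem1 made up 1.84% of that sum (young) and 12.6% (old), and Chrdl1 94.6% and 83.6%. Set against the ligand, Grem1 was at 0.0310 times the FPKM of Bmp4 in the young library and 0.439 times in the old. That order depends on the transcript lengths used, 4148 bases for Grem1 and 1118 for Bmp4. In reads, Grem1 was below Bmp4 in the young library (113 and 981) and above it in the old (877 and 538).

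Follistatin binds activins, and its gene Fst was even at 91.9 and 92.2 FPKM, ratio 1.0 [0.951 to 1.06]. Fstl1, a secreted follistatin-like glycoprotein of mesenchymal cells, was the most abundant of all 54 genes in the old library. It was at 344 FPKM (young) and 438 FPKM (old), a ratio of 1.27 [1.23 to 1.32]. In the young library Id3 stood above it in FPKM, though not in reads. Fstl3 was low at 2.66 and 2.52 FPKM, and Prss57 overlaps 47.3% of its exon bases.

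**Figure D3:**
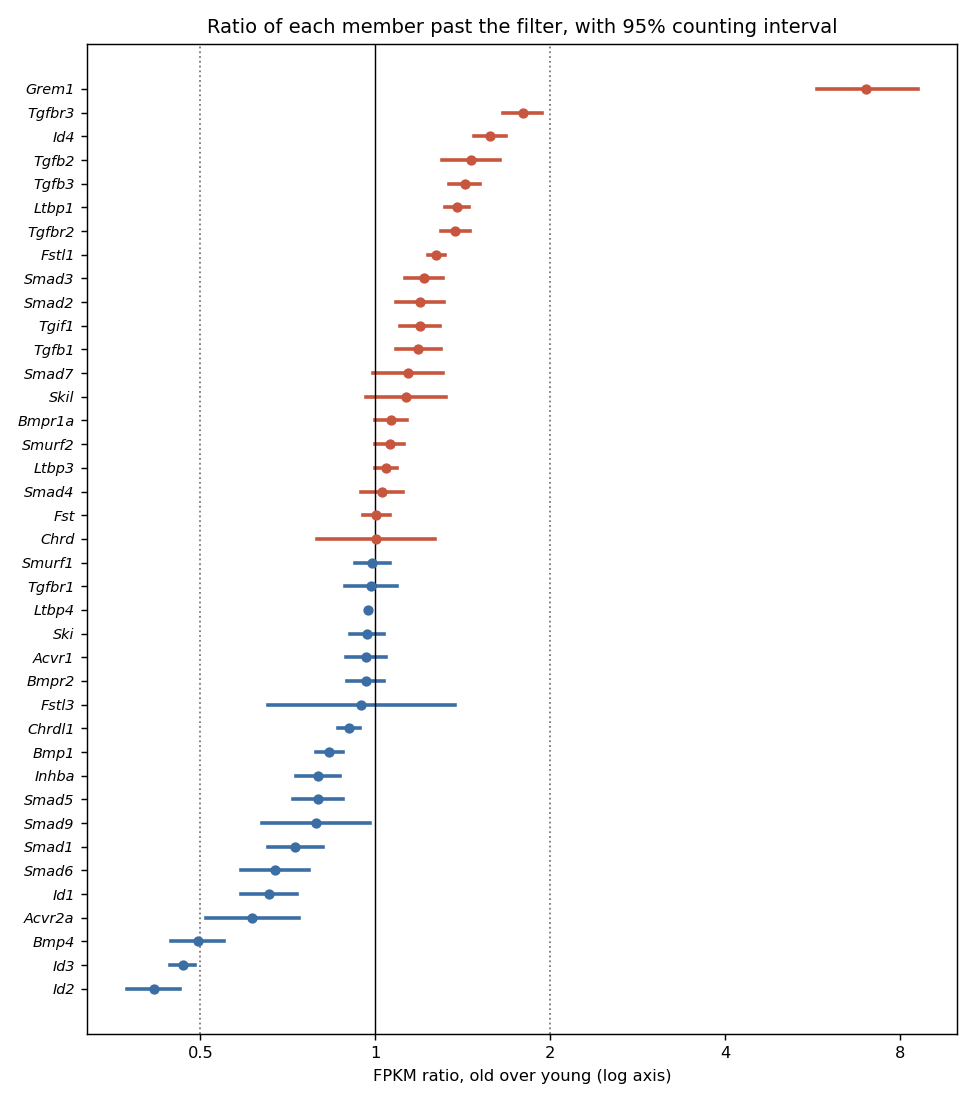
FPKM ratio, old over young, of the 39 members past the filter on a log axis, red above 1 and blue below, with bars for the 95% counting interval (none for Ltbp4) and dotted lines at 0.5 and 2. Grem1 is at 7.0 and Id2 at 0.416, and the intervals of Id2 and Id3 lie wholly below 0.5 whereas that of Bmp4 crosses it.

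Of the TGF-beta receptors, the co-receptor differed more than the kinases. Tgfbr3 encodes betaglycan, which presents TGF-beta, above all the TGFB2 form, to the kinases. It was at 21.9 FPKM (young) and 39.3 FPKM (old), a ratio of 1.79 [1.66 to 1.94], and 4.54% of its exon bases are overlapped by Gm43422. The type II kinase Tgfbr2 was at 20.5 and 28.2 FPKM, ratio 1.37 [1.30 to 1.46]. The type I kinase Tgfbr1 was even at 17.2 and 16.9 FPKM, ratio 0.984 [0.887 to 1.09]. Betaglycan mRNA was 1.28 times that of Tgfbr1 among young and 2.33 times among old cells.

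The BMP receptors were close to even, apart from 1 activin receptor. The type I receptors Bmpr1a, at 49.0 and 52.2 FPKM, and Acvr1, at 29.7 and 28.6 FPKM, had ratios of 1.06 [1.0 to 1.13] and 0.963 [0.890 to 1.04]. The type II receptor Bmpr2 was at 14.1 and 13.6 FPKM, ratio 0.962 [0.894 to 1.04]. Acvr2a, a type II receptor for activins and some BMPs, was lower in the old library, at 5.15 and 3.17 FPKM and a ratio of 0.615 [0.511 to 0.738]. Bmpr1b and the endothelial receptor Acvrl1 were each found with 1 read, in young cells only, and Acvr2b with none. Bambi, a decoy receptor without a kinase, was under the filter at 0.86 and 0.72 FPKM.

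The SMADs of the BMP branch were lower in the old library and those of the TGF-beta branch higher, under each scaling tried and each by less than 1.5-fold. Smad1 was at 22.6 FPKM (young) and 16.5 FPKM (old), a ratio of 0.728 [0.653 to 0.812]. Smad5 was at 16.1 and 12.9 FPKM, ratio 0.797 [0.721 to 0.881], and Smad9 was low at 2.14 and 1.70 FPKM, ratio 0.791 [0.638 to 0.981]. For the TGF-beta branch, Smad3 was at 51.0 and 61.8 FPKM, ratio 1.21 [1.12 to 1.31], and Smad2 at 21.2 and 25.3 FPKM, ratio 1.19 [1.09 to 1.31]. Smad4, the partner of both branches, was even at 49.3 and 50.7 FPKM. Summed over the genes of a branch, Smad1, Smad5 and Smad9 were at 40.9 FPKM (young) and 31.0 FPKM (old), and Smad2 and Smad3 at 72.1 and 87.1 FPKM.

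The inhibitory SMADs, which feed back on the pathway, went in different directions. Smad6, which acts mainly on BMP signals and is induced by them, was at 25.9 FPKM (young) and 17.5 FPKM (old), a ratio of 0.673 [0.589 to 0.770]. Smad7, which acts on both branches, was at 13.8 and 15.7 FPKM, ratio 1.14 [0.990 to 1.31]. Smad6 mRNA was 1.88 times that of Smad7 among young and 1.11 times among old cells. The ubiquitin ligases Smurf1 (25.02 and 24.7 FPKM) and Smurf2 (50.2 and 53.2 FPKM), which mark SMADs and receptors for breakdown, were close to even. Of the SMAD co-repressors, Ski (19.6 and 19.0 FPKM) was close to even, Skil (4.27 and 4.82 FPKM) had a ratio of 1.13 [0.963 to 1.32], and Tgif1 (53.1 and 63.4 FPKM) a ratio of 1.19 [1.10 to 1.29].

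The ID proteins are helix-loop-helix proteins that lack a DNA-binding region and hold other factors of that class away from DNA. Of the 4 genes, 3 were lower in the old library and 1 was higher. Id2 was at 49.3 FPKM in the young library on 1126 reads and at 20.5 FPKM in the old on 519 reads, a ratio of 0.416 [0.374 to 0.462]. Id3 was counted with 4697 reads (young) and 2429 reads (old), a ratio of 0.466 [0.444 to 0.490]. Their log2 ratios were −1.23 and −1.10, values this low or lower being found for 60 (0.478%) and 80 (0.637%) of 12561 genes. Among the 8264 genes averaging 10 FPKM or more, 17 and 20 genes lay as low. At that stricter level, Id2 and Id3 were still the members at 2-fold lower, against 0.327% of all genes. No member was at 2-fold higher, against 1.28% of all genes, since Grem1 averaged less than 10 FPKM. Of the 39 members past the filter, all but Fstl3, Chrd, Grem1, Acvr2a, Smad9 and Skil averaged 10 FPKM or more. Id2 (ENSMUSG00000020644) lies on chromosome 12, from 25093799 to 25097140, and Id3 (ENSMUSG00000007872) on chromosome 4, from 136143497 to 136145755, and no exon base of either is overlapped by another gene.

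Id1 differed less, at 44.7 FPKM (young) and 29.4 FPKM (old), a ratio of 0.657 [0.588 to 0.733]. Id4, which is known to favour osteoblast over adipocyte development, was at 25.1 and 39.6 FPKM, ratio 1.58 [1.48 to 1.68]. The intervals of Id1, Id2 and Id3 lay wholly below 1 and that of Id4 wholly above it. Summed over the 4 genes, the level was 496 FPKM (young) and 265 FPKM (old). Id3 made up 76.0% of that sum (young) and 66.2% (old), and Id4 5.07% and 14.9%. Id3 mRNA was 14.99 times that of Id4 in FPKM among young and 4.43 times among old cells, a comparison that no scaling of a whole library can change. It does depend on the transcript lengths used, 764 bases for Id3 and 3849 for Id4.

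**Figure D4:**
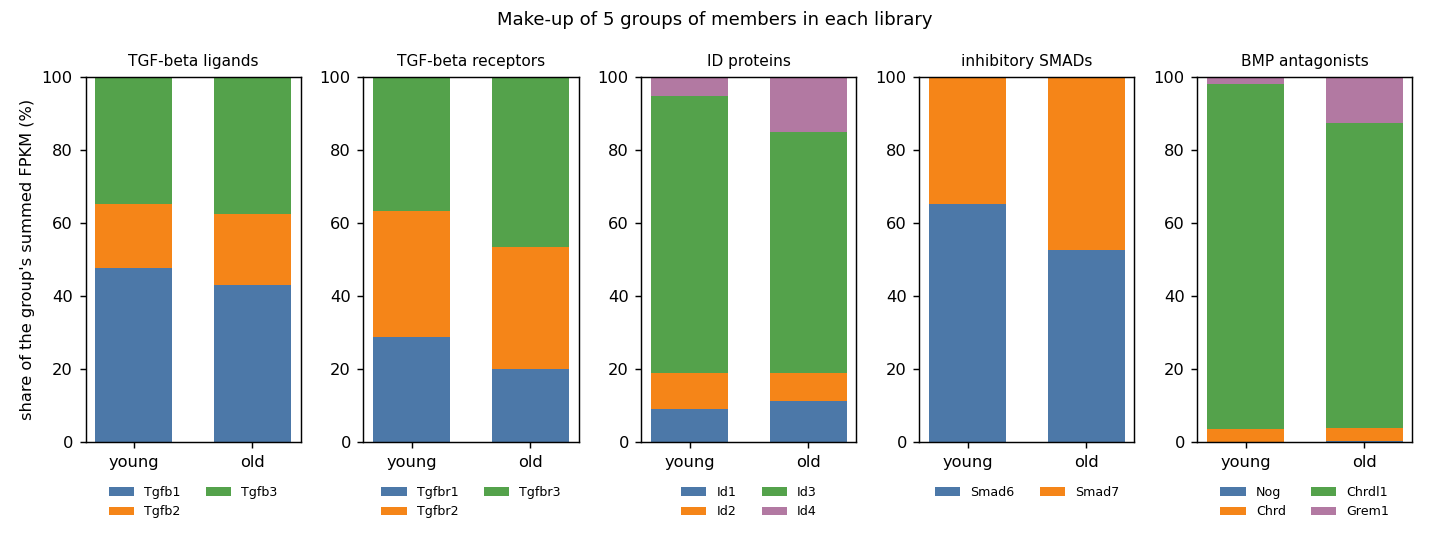
Share of the summed FPKM taken by each gene of 5 groups of members, with 1 stacked bar for the young and 1 for the old library. The Id4 share goes from 5.07% to 14.9%, the Grem1 share from 1.84% to 12.6% and the Smad7 share from 34.7% to 47.4%.

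Other genes of the pathway were read from 8 lists. Over all genes past the filter, the shares at 2-fold were 1.97% higher and 0.868% lower. In lists with 4 to 27 genes past the filter, a count of none at 2-fold is near those shares. Of the other ligands of the family 4 of 19 passed the filter, all lower in the old library and none by 2-fold, with a median log2 ratio of −0.46. They were Gdf11 (25.2 and 16.1 FPKM), which is close in sequence to myostatin, Gdf9 (2.61 and 1.59 FPKM), the stress-induced Gdf15 (4.02 and 2.68 FPKM) and the inhibin subunit Inha (5.06 and 4.53 FPKM). The intervals of Gdf9, 0.609 [0.352 to 1.04], and Inha, 0.894 [0.690 to 1.16], include 1. Those of Gdf11, 0.639 [0.593 to 0.689], and Gdf15, 0.667 [0.484 to 0.916], lay below 1. Of the other receptors and co-receptors 7 of 11 passed with none at 2-fold and a median of 0.00, and Rgmb, a BMP co-receptor, differed most at 25.9 and 20.4 FPKM. The next were Eng, Acvr1b and Nrp1, with log2 ratios of 0.30, −0.15 and 0.12.

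Of the other secreted antagonists and modulators 11 of 19 passed, with none at 2-fold and a median of 0.21. Htra3, Bmper and the proteoglycan Dcn had log2 ratios of 0.37, 0.31 and 0.30. Sost, the antagonist sclerostin of osteocytes, was counted with 0 reads (young) and 2 reads (old). The list on the activation and storage of latent TGF-beta had 15 of 25 genes past the filter, with a median of 0.20. None was at 2-fold higher, against 1.97% of all genes, and 1 was lower, against 0.868%. Its lower gene was the collagenase Mmp13 (15.3 and 5.84 FPKM), while Mmp9 (16.5 and 29.5 FPKM), the integrin Itgb3 and the fibrillin Fbn2 had log2 ratios of 0.80, 0.51 and 0.50.

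Inside the cell the lists varied little. Of 24 other intracellular regulators 23 passed with none at 2-fold and a median of 0.02. The SMAD feedback inhibitor Pmepa1 differed most, at 16.8 and 23.9 FPKM, followed by Hipk2, Tgif2 and Usp9x with log2 ratios of 0.34, 0.34 and 0.28, although 61.6% of the exon bases of Tgif2 are overlapped by other genes. All 11 genes of the TAK1 and p38 branch, which carries TGF-beta signals past the SMADs, passed and had log2 ratios below 0, with none at 2-fold and a median of −0.16, and 8 of the 11 lay below the median of all genes. Map2k6, Xiap, Mapk8 and Mapk9 had values between −0.44 and −0.22.

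The targets of TGF-beta and SMAD3 went both ways, with 27 of 30 past the filter, 2 at least 2-fold higher, 2 lower and a median of 0.02, against 1.97% and 0.868% of all genes at 2-fold. At 1.5-fold, 5 of the 27 were higher and 3 lower, against 5.52% and 4.47% of all genes. The early-response repressor Klf10 was at 38.5 FPKM (young) and 10.7 FPKM (old), and Ccn2, a matricellular growth factor, at 11.5 and 5.06 FPKM. In contrast, the metalloproteinase inhibitors Timp3, at 98.2 and 290.2 FPKM, and Timp1, at 65.2 and 143 FPKM, were higher. Exon bases are overlapped by other genes for 23.2% of Ccn2 and 21.3% of Timp3. The targets of BMP and of SMAD1 and SMAD5 had 15 of 21 genes past the filter, none at 2-fold and a median of −0.13. The osteoblast factor Sp7 was at 55.5 and 28.9 FPKM, the repressor Hes1 at 19.6 and 11.9, the homeobox gene Dlx5 at 83.2 and 53.3 and Msx1 at 11.2 and 7.09. On the log2 scale of FPKM + 1, those 4 were the genes of the list at 1.5-fold lower, against 4.47% of all genes. None of the list was 1.5-fold higher on that scale, against 5.52% of all genes. Tcf7 came nearest, at 1.58 and 2.39 FPKM, an FPKM ratio of 1.51.

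**Figure D5:**
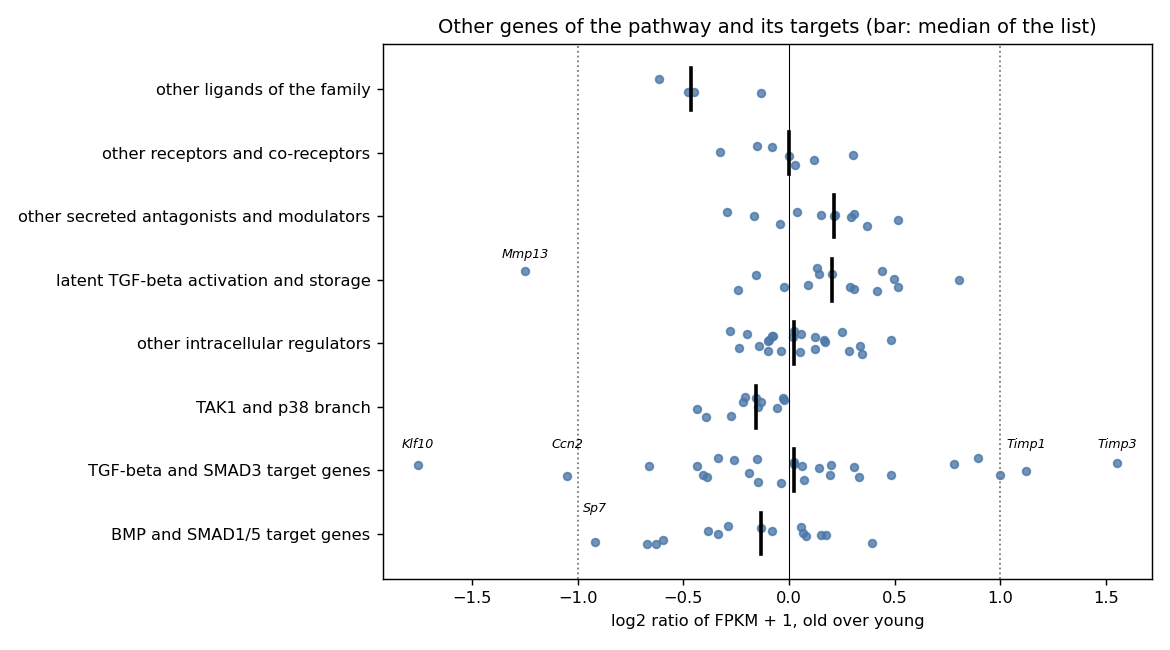
Log2 ratios of FPKM + 1, old over young, of the genes past the filter in 8 lists of other pathway genes and targets, 1 point a gene (scattered vertically for legibility), with a black bar at each list's median and dotted lines at 2-fold. Klf10 is farthest to the left at −1.76 and Timp3 farthest to the right at 1.55, and the medians lie between −0.46 and 0.21.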

How the data were processed

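The authors deposited a table of FPKM with 1 value per gene and library. Named in the submitters' processing notes are mm10 as the build and, as tools, edgeR, HTSeq, STAR and fastp. Which step each did, its version, the annotation release and the use of strand: not given in the sources used here. Gene symbols, positions and lengths came from GENCODE M21 (GRCm38), which held 55227 of the 55487 identifiers. Reads were worked out from the FPKM steps with the rounded mean transcript length, and 97.4% of the values above 0 in each library came out whole within 0.01. They served for exact Clopper-Pearson intervals, computed on the fraction of a gene's reads that fell in the old library and converted to a ratio of FPKM, and for the limit of 3 reads where a gene had 0. PCR copies are not independent molecules. The pseudocount was 1 FPKM. The calculation (Python 3.11.15, numpy 2.4.6, pandas 2.3.3, scipy 1.17.1) was tested on simulated data. Alternatives were other pseudocounts, filters, scalings and fold thresholds.

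The members and lists were chosen with earlier results of these data known. Every member is accounted for, and from each list the up to 4 genes with the largest absolute log2 ratio past the filter are named, except for 1 that is not reported here. Any other gene was chosen after its values were seen. Thbs1, Pmepa1, Ldlrad4 and Sost are each in 2 lists. Since no source states the use of strand, reads of overlapping genes cannot be told apart.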

Additional observations from a re-analysis of the deposited data

How the results depend on the processing

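Among the members, 1 was at least 2-fold higher and 2 were lower at pseudocounts of 1 and 5, with no filter and as TPM. The counts were the same with the median log2 ratio set to 0, without the 10 most abundant genes and among genes with under 20% exon overlap. The counting intervals of these members, Grem1, Id2 and Id3, lay wholly past 2-fold. Intervals were counted only for genes past the filter and already at 2-fold, so this count could not add a member. Ltbp2, under the filter, had an interval of 2.14 to 5.18. With a mean of at least 10 FPKM, 0 were higher, since Grem1 drops out. With a pseudocount of 0.1, Bmp4 became a further lower member. At 1.5-fold, 3 were higher and 4 lower. Over all genes, the counts of 248 higher and 109 lower became 408 and 236 with a pseudocount of 0.1, 101 and 20 with a pseudocount of 5, 106 and 27 with a mean of at least 10 FPKM, and 693 and 561 at 1.5-fold. Of the 248 higher and 109 lower genes, 171 and 36 had whole reads and a counting interval wholly past 2-fold. The median of the members stayed between 0.00 and 0.07. No member at 2-fold changed direction, and with the median of all genes set to 0, a shift of 0.07, Ltbp4, Tgfbr1, Bmpr2, Acvr1, Smurf1 and Ski changed sign. No paired analysis was possible because each group holds 1 library. Depth limits what can be said of members with few reads, such as Nog, Bmp6 and Inhbb.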
